A study of Homo sapiens with 9 samples.

Results

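Ligands, receptors and transcriptional targets of the Notch pathway were followed in SNU-398, an established human hepatocellular carcinoma (HCC) cell line. The 10 genes were taken by name from the deposited count and TPM tables: the ligands JAG1, JAG2, DLL1 and DLL4, the receptors NOTCH1, NOTCH2 and NOTCH3, and the targets HES1, HES4 and HEY1. They are 10 of 60642 gene names listed, and all 10 were among the 18574 genes that passed the filter on low counts and were tested. The list was not chosen from measured values by its own rule, but it was proposed with earlier results of these data in view.

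Notch signaling passes between touching cells. A Jagged (JAG) or Delta-like (DLL) ligand on one cell binds a NOTCH receptor on its neighbor, the receptor is cut by an ADAM protease and then by gamma-secretase, and the freed intracellular domain moves to the nucleus, where it joins the DNA-binding protein RBPJ and a Mastermind coactivator. The best known targets of that complex are the HES and HEY genes, which encode basic helix-loop-helix repressors. In the liver the pathway is known for its part in bile duct development, where JAG1 and NOTCH2 act together, and it has been studied in liver cancer.

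RNA-seq was performed on 9 libraries in 3 groups. SNU-398 cells were infected with lentivirus carrying an empty vector (vector control, n = 3), EMX1-FL (n = 3) or EMX1-X1 (n = 3), and stable lines of all groups were selected with puromycin, so that every group carries a vector and the drug selection. EMX1-FL is the full-length form of the homeobox transcription factor EMX1, with the whole DNA-binding homeodomain, and EMX1-X1 is a splice form with another C-terminal end. The control samples carry the label wild type for genotype, and no source says whether a line is 1 clone. The paper speaks of biological replicates for data of these lines, but the labels do not say how the libraries of a group were grown, so p-values measure the spread between these libraries, part of which may be technical. EMX1 itself, counted over both forms together, was 16.5-fold above the vector control with EMX1-FL and 22.5-fold above it with EMX1-X1. These groups overlapped (log2 fold change -0.45 for EMX1-FL against EMX1-X1, unadjusted p = 0.155 in edgeR), so their order was not resolved.

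Total counts on genes were between 21562703 and 25197970 per library. Of the hepatocyte markers, APOB, TF, TTR, HNF4A and SERPINA1 had at most 5 counts in any library, APOA1 had at most 9 and ALB between 10 and 53, so these defining markers of hepatocytes were nearly absent. Of the fetal liver and hepatoma markers, AFP was at 0 counts in every library and GPC3 was between 14.5 and 26.7 TPM. Of the mesenchymal markers VIM was between 703 and 1120 TPM, FN1 between 33.1 and 62.5 TPM, CDH2 between 9.18 and 18.1 TPM and ZEB1 at most 1.28 TPM. Of the epithelial markers EPCAM was between 3.6 and 8.57 TPM, CDH1 at most 2.39 TPM and KRT19 at or near 0. Some of these markers also differed between the groups. ALB was a DEG by the threshold given below, at 1.46 on the log2 scale with EMX1-FL (edgeR adjusted p = 0.467) and 1.11 with EMX1-X1 (edgeR adjusted p = 0.576), and ZEB1 was one with EMX1-FL at 1.22 (edgeR adjusted p = 0.837), with overlapping groups. FN1 was at 0.60 with EMX1-FL (edgeR adjusted p = 0.216, DESeq2 adjusted p = 0.0208) and 0.55 with EMX1-X1 (edgeR adjusted p = 0.433), with all overexpression libraries above all controls. Below the fold change limit, CDH2 was at 0.58 with EMX1-FL (unadjusted p = 0.0206 in edgeR) and 0.48 with EMX1-X1 (unadjusted p = 0.0463 in edgeR), and CDH1 at 0.75 with EMX1-X1 (unadjusted p = 0.0352 in edgeR). The part of these marker differences in the results on JAG1 and HEY1, which were apart from the controls in the same libraries, was not tested. The libraries did not separate by group alone. The first principal component (PC1) of all tested genes, with 39.6% of the variance, split them into 5 libraries with low scores (replicates 1 and 2 of the vector control, 2 and 3 of EMX1-FL and 1 of EMX1-X1) and 4 with high scores (replicate 3 of the vector control, 1 of EMX1-FL and both 2 and 3 of EMX1-X1). The labels name no batch, these sides were read from the counts, and 2 of 3 EMX1-X1 libraries but only 1 of 3 in each other group lie on the high side. Values within the sides are therefore given beside the results on the 10 genes with EMX1-X1 against the vector control, and beside some others. The part of this axis in the differences between groups was not tested. EMX1 itself was higher on the high side, by 0.78 on the log2 scale in the edgeR fit with group and side. With EMX1-FL its log2 difference from the vector control was 3.86 on the low side and 4.28 on the high side. With EMX1-X1 it was 3.91 and 4.5. With the side as a term, EMX1 was at -0.18 for EMX1-FL against EMX1-X1 (unadjusted p = 0.157 in edgeR).

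Levels in the vector control were compared per length, as TPM (transcripts per 1000000), across the 10 genes. HES4 was the highest at 92 ± 15.4 TPM (SD, n = 3). NOTCH2 followed at 47.3 ± 5.53 TPM. JAG2 at 34.6 ± 1.36 TPM and NOTCH3 at 34.2 ± 2.07 TPM had overlapping ranges, so their order is not resolved. DLL1 was at 10.1 ± 0.806 TPM and HES1 at 6.33 ± 0.697 TPM. HEY1 at 4.78 ± 0.804 TPM and JAG1 at 3.66 ± 0.456 TPM overlapped as well. NOTCH1 at 2.41 ± 0.131 TPM and DLL4 at 1.18 ± 0.179 TPM were the lowest. The line thus expressed all 4 ligands, with JAG2 over DLL1, JAG1 and DLL4, and mainly the receptors NOTCH2 and NOTCH3. HES1, often taken as the standard readout of Notch activity, was among the lower genes, whereas the related repressor gene HEY2, which is outside the 10, had 269 ± 31.7 TPM, and HES5 was at 0 counts in every library.

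**Figure D1:**
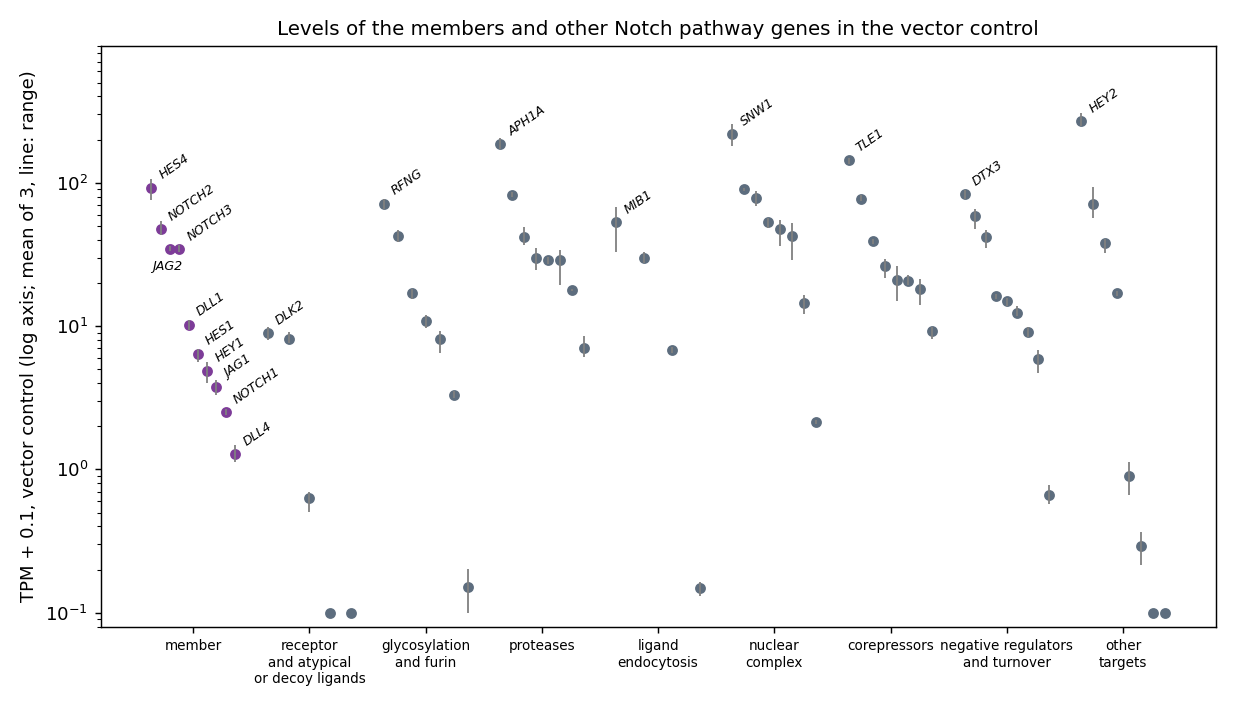
Mean TPM plus 0.1 in the 3 vector control libraries on a log axis, with the range as a line, for the 10 genes (purple, left) and 57 other Notch pathway genes by role. The 10 genes run from 1.18 TPM for DLL4 to 92 TPM for HES4, and the highest gene of each other role is named, among them HEY2 at 269 TPM.

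For differences between groups, raw counts with TMM-scaled library sizes were tested with the quasi-likelihood test of edgeR. Levels in single libraries are given as CPM (counts per 1000000, on the same library sizes). A differentially expressed gene (DEG) had an unadjusted p under 0.05 together with a log2 fold change of 1 or more in either direction, and the Benjamini-Hochberg adjusted p over all tested genes is given beside it. None of the 10 genes was a DEG with EMX1-FL, where 2.42% of all tested genes were, none with EMX1-X1, where 2.5% were, and none between EMX1-FL and EMX1-X1, where 1.42% were. None passed an adjusted p under 0.05 in edgeR in any comparison either, where 0.07%, 0.00538% and 0% of all tested genes passed. DESeq2 gave 1 of the 10 (JAG1) at that adjusted p with EMX1-FL, against 0.931% of all genes, none with EMX1-X1, against 0.361%, and none between the isoforms, against 0.0108%, while limma on log2(TPM + 1) gave none in any comparison, against 0.0215%, 0.00538% and 0%. Single libraries decided some calls: DLL4 and HES4 became DEGs with EMX1-X1 without vector control replicate 1 (1.02 and 1.01 on the log2 scale) and without EMX1-X1 replicate 1 (1.05 and 1.27), HES4 without vector control replicate 3 (1.01), both between the isoforms without EMX1-FL replicate 1 (-1.01 and -1.25), and HES4 without EMX1-X1 replicate 1 (-1.29). The DEG count over all tested genes moved in these refits too. With EMX1-X1 it went from 464 to 457 without vector control replicate 1, 559 without vector control replicate 3 and 906 without EMX1-X1 replicate 1. Between the isoforms it went from 263 to 1108 without EMX1-FL replicate 1 and 759 without EMX1-X1 replicate 1. In bulk RNA, fewer cells that express a gene and less RNA per cell cannot be told apart.

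Without the fold change limit, the comparisons differed in how many of the 10 had an unadjusted p under 0.05. With EMX1-FL 2 of 10 were higher (JAG1 and HEY1), against 3.97% of all tested genes, and none was lower, against 1.83%. With EMX1-X1 7 of 10 were higher (NOTCH1, NOTCH3, JAG1, JAG2, DLL4, HES4 and HEY1), against 5.95% of all tested genes, and none was lower, against 2.16%. Between EMX1-FL and EMX1-X1, 3 of 10 (NOTCH3, JAG2 and HES4) were lower with EMX1-FL, against 4.66%, and none was higher, against 2.98%. The median log2 fold change of the 10 genes was 0.12 with EMX1-FL, 0.71 with EMX1-X1 and -0.46 between them, while that of all tested genes was 0.04, 0.01 and 0.02. The 2 overexpression groups were set against the same vector control libraries, so these counts are not independent of each other.

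**Figure D2:**
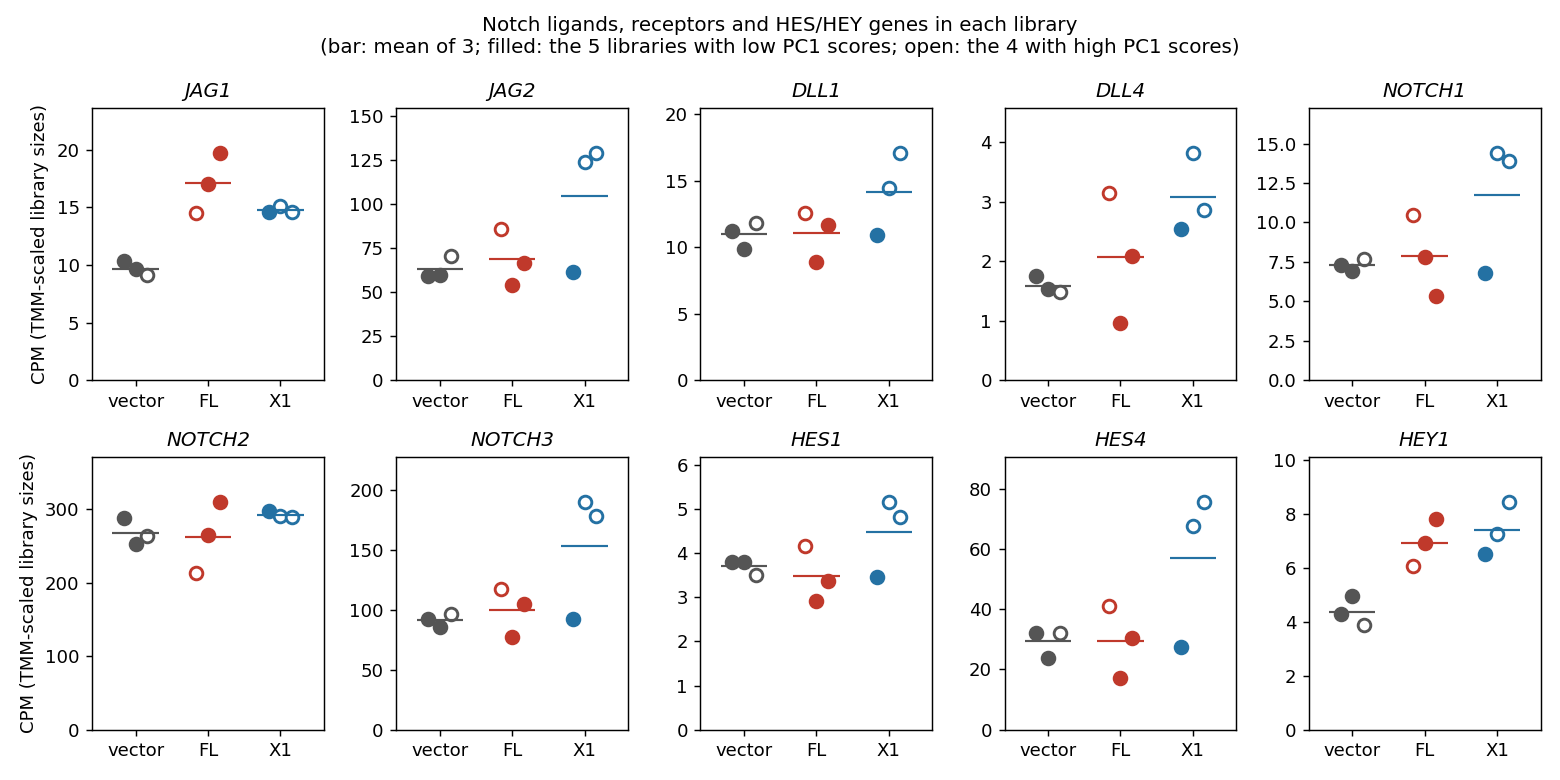
CPM of the 10 genes in each of the 9 libraries, by group, each panel from 0 on its own linear axis; bars are means of 3, filled points are the 5 libraries with low PC1 scores and open points the 4 with high scores. JAG1 and HEY1 are higher in all 6 overexpression libraries than in the 3 controls, while for JAG2, NOTCH1, NOTCH3 and HES4 the 2 open EMX1-X1 points stand apart from the filled one.

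JAG1, a Jagged ligand (GRCh38 chr20:10637684-10673999, minus strand), had the smallest unadjusted p of the 10 with EMX1-FL. Its level was 10.3, 9.6 and 9.11 CPM in the vector control, 14.5, 17 and 19.7 CPM with EMX1-FL, and 14.6, 15.1 and 14.6 CPM with EMX1-X1. Every library of either overexpression group lay above every control library, and the groups EMX1-FL and EMX1-X1 overlapped. JAG1 was higher with EMX1-FL by 0.82 on the log2 scale (SE 0.18, 1.77-fold, 95% CI 0.42 to 1.22, unadjusted p = 0.000746, edgeR adjusted p = 0.167). It was higher with EMX1-X1 by 0.61 (SE 0.18, 1.53-fold, 95% CI 0.21 to 1.01, unadjusted p = 0.00582, edgeR adjusted p = 0.487). The difference between the isoforms was 0.21 (95% CI -0.18 to 0.6, unadjusted p = 0.264 in edgeR), so their order was not resolved.

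The JAG1 difference was of like size on both sides of PC1. With EMX1-FL the log2 difference was 0.88 among the low-score libraries and 0.67 among the high-score ones, and with EMX1-X1 it was 0.56 and 0.7. JAG1 differed little between the sides, by -0.15 on the log2 scale (high minus low scores, from the edgeR fit with group and side). With the PC1 side as a term of the edgeR fit the EMX1-FL value stayed at 0.82 (SE 0.14) with an adjusted p of 0.011, where 1.53% of all tested genes passed an adjusted p under 0.05. With an offset for GC content the value was 0.83 with an adjusted p of 0.0246, where 1.02% passed. Both the side and the GC curves were read from these same libraries, so these p-values are no independent evidence, and over the 19 refits of this value the adjusted p ran from 0.00772 to 0.703. Leaving out EMX1-FL replicate 1, the EMX1-FL library with the high PC1 score, gave 0.93 with an adjusted p of 0.0337. In that refit the genes at an adjusted p under 0.05 with the fold change limit rose from 13 to 88 among all genes, and JAG1 was below that limit. Of the exon bases of JAG1, 3.3% are shared with AL050403.2, and reads on them may come from either gene or be left out of the counts.

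The bases just before the JAG1 start are shown because it is the ligand that stood apart from the controls in both overexpression groups and EMX1 is a homeodomain protein, a class whose known core motif is TAAT. This is the 250 bases upstream of the start in RefSeq (GRCh38.p14, chr20:10674000-10674249, minus strand), in which capitals mark TAAT on either strand (here 2 overlapping matches) and would mark TGGGAA, the core of the RBPJ motif, which is not in this window.
JAG1: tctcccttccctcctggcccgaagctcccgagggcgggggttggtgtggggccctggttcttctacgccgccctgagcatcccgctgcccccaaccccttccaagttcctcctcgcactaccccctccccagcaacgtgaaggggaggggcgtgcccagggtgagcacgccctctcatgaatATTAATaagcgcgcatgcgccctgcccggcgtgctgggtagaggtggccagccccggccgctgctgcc
TAAT on either strand was found in 47.4% of 35116 RefSeq promoter windows of this length, and the longer TAATTA, which contains it, in 4.3%; JAG1 was the only one of 8 matched genes with TAAT, and none had TAATTA. DLL1 and HEY1 have no entry in the table. A match describes the letters and no binding was measured here.

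JAG2, the most abundant ligand (chr14:105140982-105168824), had 59.1, 59.8 and 70.7 CPM in the vector control, 85.6, 54.1 and 66.7 CPM with EMX1-FL, and 61.6, 124 and 129 CPM with EMX1-X1. The EMX1-FL libraries spread to both sides of the controls, and of the EMX1-X1 libraries the 2 with high PC1 scores lay far above the third, which was among the controls. The log2 fold change was 0.12 with EMX1-FL (SE 0.27, 95% CI -0.47 to 0.71) and 0.73 with EMX1-X1 (SE 0.27, unadjusted p = 0.0193, edgeR adjusted p = 0.568). Within the low-score libraries the EMX1-X1 difference was 0.05 and within the high-score ones 0.84, and with the GC offset it was 0.26 (unadjusted p = 0.0771 in edgeR). Of its exon bases, 7.3% are shared with AL512356.1.

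The Delta-like ligands were lower in level. DLL1 (chr6:170282206-170306565) had 11.2, 9.91 and 11.8 CPM in the vector control, 12.6, 8.89 and 11.7 CPM with EMX1-FL, and 10.9, 14.5 and 17.1 CPM with EMX1-X1. The groups overlapped in all comparisons, with log2 fold changes of 0.02 (95% CI -0.47 to 0.5) with EMX1-FL and 0.37 (95% CI -0.11 to 0.85) with EMX1-X1. The EMX1-X1 difference was 0.05 within the low-score libraries and 0.42 within the high-score ones. Of the DLL1 exon bases, 9.7% are shared with FAM120B. DLL4 (chr15:40929340-40939073), best known from blood vessel sprouting, rested on between 23 and 92 counts per library. It had 1.76, 1.53 and 1.48 CPM in the vector control, 3.15, 0.969 and 2.08 CPM with EMX1-FL, and 2.54, 3.82 and 2.87 CPM with EMX1-X1. All EMX1-X1 libraries lay above the controls, with a log2 fold change of 0.95 (SE 0.39, unadjusted p = 0.0301, edgeR adjusted p = 0.575), of which the within-side differences were 0.63 and 1.16. With EMX1-FL it was 0.38 (95% CI -0.48 to 1.23) and the libraries fell on both sides of the controls. Endothelial markers were near 0 (summed TPM of 4 genes at most 0.412).

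Of the receptors, NOTCH2 (chr1:119911553-120100779) had the smallest SE of its fold changes. It had 288, 252 and 264 CPM in the vector control, 213, 265 and 309 CPM with EMX1-FL, and 297, 290 and 289 CPM with EMX1-X1. The EMX1-X1 libraries lay just above the highest control, and the EMX1-FL libraries spread beyond both ends of the control range. The log2 fold changes were -0.03 (95% CI -0.38 to 0.32) with EMX1-FL and 0.12 (95% CI -0.23 to 0.48) with EMX1-X1. The EMX1-X1 difference was 0.14 within the low-score libraries and 0.14 within the high-score ones. The human genome holds partial copies of NOTCH2, so that some of its reads may be split or lost in counting. NOTCH2NLC had between 45 and 192 counts and NOTCH2NLA at most 14, against between 4807 and 7153 for NOTCH2.

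NOTCH3 (chr19:15159038-15200995) and NOTCH1 (chr9:136494433-136546048) followed another pattern. NOTCH3 had 92.6, 86.1 and 96.3 CPM in the vector control, 118, 77.6 and 105 CPM with EMX1-FL, and 92.5, 190 and 179 CPM with EMX1-X1. NOTCH1 had 7.32, 6.9 and 7.66 CPM in the vector control, 10.5, 7.84 and 5.36 CPM with EMX1-FL, and 6.82, 14.4 and 13.9 CPM with EMX1-X1. In both genes EMX1-X1 replicate 1 lay within the control range or below it, and replicates 2 and 3 lay far above every control. The EMX1-X1 log2 fold change was 0.74 for NOTCH3 (SE 0.26, unadjusted p = 0.0133, edgeR adjusted p = 0.538) and 0.68 for NOTCH1 (SE 0.31, unadjusted p = 0.0467, edgeR adjusted p = 0.611). Within the low-score libraries these differences were 0.05 and -0.06, and within the high-score ones 0.93 and 0.88. With EMX1-FL the values were 0.13 for NOTCH3 (95% CI -0.43 to 0.68) and 0.12 for NOTCH1 (95% CI -0.56 to 0.79). Between the isoforms NOTCH3 was lower with EMX1-FL by 0.62 on the log2 scale (log2 fold change -0.62, SE 0.26, unadjusted p = 0.0331, edgeR adjusted p = 0.611).

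Among the targets HEY1, a hairy-related repressor, was also apart from the controls in both overexpression groups. It had 4.28, 4.98 and 3.87 CPM in the vector control, 6.08, 6.95 and 7.81 CPM with EMX1-FL, and 6.53, 7.27 and 8.44 CPM with EMX1-X1. Every overexpression library lay above every control library. The log2 fold change was 0.67 with EMX1-FL (SE 0.21, 1.59-fold, unadjusted p = 0.00907, edgeR adjusted p = 0.529) and 0.76 with EMX1-X1 (SE 0.21, 1.69-fold, unadjusted p = 0.00397, edgeR adjusted p = 0.464). The within-side differences were 0.67 and 0.65 with EMX1-FL, and 0.5 and 1.02 with EMX1-X1. Between the isoforms the difference was -0.09 (95% CI -0.55 to 0.36). JAG1 and HEY1 were the only members of the 10 whose groups did not overlap with EMX1-FL (both higher, against 5.36% of all tested genes), while 4 of 10 did not overlap with EMX1-X1 (NOTCH2, JAG1, DLL4 and HEY1, all higher, against 8.03%). No member was apart between the isoforms, against 3.89% of all genes higher and 4.49% lower with EMX1-FL. For a single gene, 3 libraries against 3 cannot give less than p = 0.1 in an exact two-sided permutation test, and JAG1 and HEY1 were at 0.1 in both overexpression comparisons.

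HES1 (chr3:194136148-194138732), the classical target, had 3.81, 3.8 and 3.5 CPM in the vector control, 4.17, 2.91 and 3.37 CPM with EMX1-FL, and 3.45, 5.15 and 4.81 CPM with EMX1-X1, on between 69 and 124 counts. The groups overlapped, with log2 fold changes of -0.09 (95% CI -0.63 to 0.45) and 0.27 (95% CI -0.26 to 0.81). The EMX1-X1 difference was -0.14 within the low-score libraries and 0.51 within the high-score ones. HES4 (chr1:998962-1000172) had 32, 23.7 and 32.2 CPM in the vector control, 40.9, 17 and 30.3 CPM with EMX1-FL, and 27.3, 67.7 and 75.4 CPM with EMX1-X1. The EMX1-FL libraries spanned more than the control range in both directions, and again EMX1-X1 replicate 1 lay among the controls while the other two lay above all of them. Its log2 fold change was 0.00 with EMX1-FL (95% CI -0.81 to 0.82). It was 0.95 with EMX1-X1 (SE 0.37, unadjusted p = 0.0258, edgeR adjusted p = 0.575) and -0.95 between EMX1-FL and EMX1-X1 (SE 0.37, unadjusted p = 0.0264, edgeR adjusted p = 0.611). Within the low-score libraries the EMX1-X1 difference was -0.01 and within the high-score ones 1.15. DEG calls of HES4 turned on single libraries: without EMX1-X1 replicate 1 it was 1.27 with EMX1-X1 (adjusted p = 0.137 in edgeR), past the fold change limit. In that refit the DEGs among all tested genes rose from 464 to 906.

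The upstream bases of HES1 and HES4 are shown because they are the HES targets of the 10 and hold TGGGAA, the core of the RBPJ motif. Each line is the 250 bases before the start in RefSeq (GRCh38.p14), for HES1 chr3:194135898-194136147 on the plus strand and for HES4 chr1:1000098-1000347 on the minus strand, with TGGGAA in capitals.
HES1: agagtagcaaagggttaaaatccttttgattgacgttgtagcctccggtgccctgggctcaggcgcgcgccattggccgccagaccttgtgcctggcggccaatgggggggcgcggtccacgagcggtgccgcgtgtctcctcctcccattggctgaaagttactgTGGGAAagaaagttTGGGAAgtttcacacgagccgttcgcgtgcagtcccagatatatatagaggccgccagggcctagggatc
HES4: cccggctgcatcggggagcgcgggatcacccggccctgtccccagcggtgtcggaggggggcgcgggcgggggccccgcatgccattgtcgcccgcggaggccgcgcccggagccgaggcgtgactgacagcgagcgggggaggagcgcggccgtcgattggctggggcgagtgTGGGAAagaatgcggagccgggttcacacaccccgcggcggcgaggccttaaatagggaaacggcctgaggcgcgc
HES1 held 2 matches, whose first bases lie 84 and 70 bases before the start, and HES4 held 1, 76 bases before it. TGGGAA on either strand was found in 20.8% of the 35116 windows, and in 2 of the 8 matched genes. The capitals mark these letters only, other forms of the RBPJ motif were not marked, and no binding was measured here. The HES4 window was 74.8% G and C, the HES1 window 59.2% and the JAG1 window 68.4%, against a median of 58% over all windows.

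The 10 genes split by GC content in how they followed PC1. Differences between the sides in this paragraph are the side term of an edgeR fit that also held the group. JAG1, NOTCH2, HES1 and HEY1, with transcripts of 47.3% to 49.9% G and C, differed between the high-score and low-score libraries by -0.16 to 0.28 on the log2 scale. NOTCH1, NOTCH3, JAG2, DLL1, DLL4 and HES4, with 58.3% to 73.9%, were all higher in the high-score libraries, by 0.33 to 0.8, and HES4 had both the highest GC content and the largest difference. Among all tested genes the median difference was 0.62 at a GC content of at least 60% and -0.44 below 45%. All tested genes with a GC content from 57% to below 75%, 3955 in number, had a median log2 fold change of 0.38 with EMX1-X1 and -0.34 between the isoforms, while the 6 GC-rich members had 0.74 and -0.6. With the GC offset the median of those 6 was 0.28 with EMX1-X1 and -0.18 between the isoforms. Within the low-score libraries it was 0.05 with EMX1-X1, from 1 EMX1-X1 library and 2 controls, and within the high-score ones 0.9, from 2 EMX1-X1 libraries and 1 control. GC content, PC1 side, the level of EMX1 and EMX1-X1 cannot be told apart fully with this number of libraries.

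**Figure D3:**
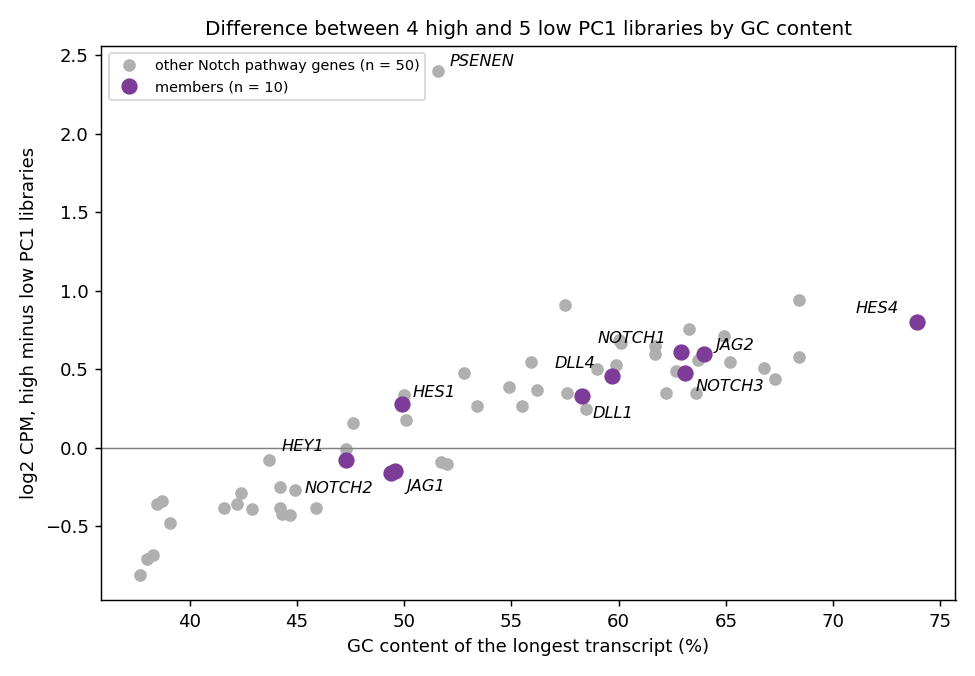
Log2 difference between the 4 libraries with high and the 5 with low PC1 scores against transcript GC content in percent, for the 10 members (purple) and 50 tested pathway genes (grey). The difference is the side term of an edgeR fit that also held the group. JAG1, NOTCH2 and HEY1 lie near 0 below 50% GC, HES4 lies at 0.8 at 73.9% GC, and PSENEN stands apart at 2.4.

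The counts of members also differed between the fits. With the PC1 side as a term, 5 of 10 (NOTCH3, JAG1, JAG2, HES4 and HEY1) were higher with EMX1-X1 at an unadjusted p under 0.05 in edgeR, against 7.82% of all tested genes. With the GC offset 2 of 10 (JAG1 and HEY1) were, against 5.84%. Between EMX1-FL and EMX1-X1 the GC offset left none of the 10 lower with EMX1-FL, against 5.05% of all tested genes. With the GC offset JAG1 was at 0.56 with EMX1-X1 (edgeR unadjusted p = 0.00306, adjusted p = 0.182) and HEY1 at 0.77 (edgeR unadjusted p = 0.00115, adjusted p = 0.128).

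**Figure D4:**
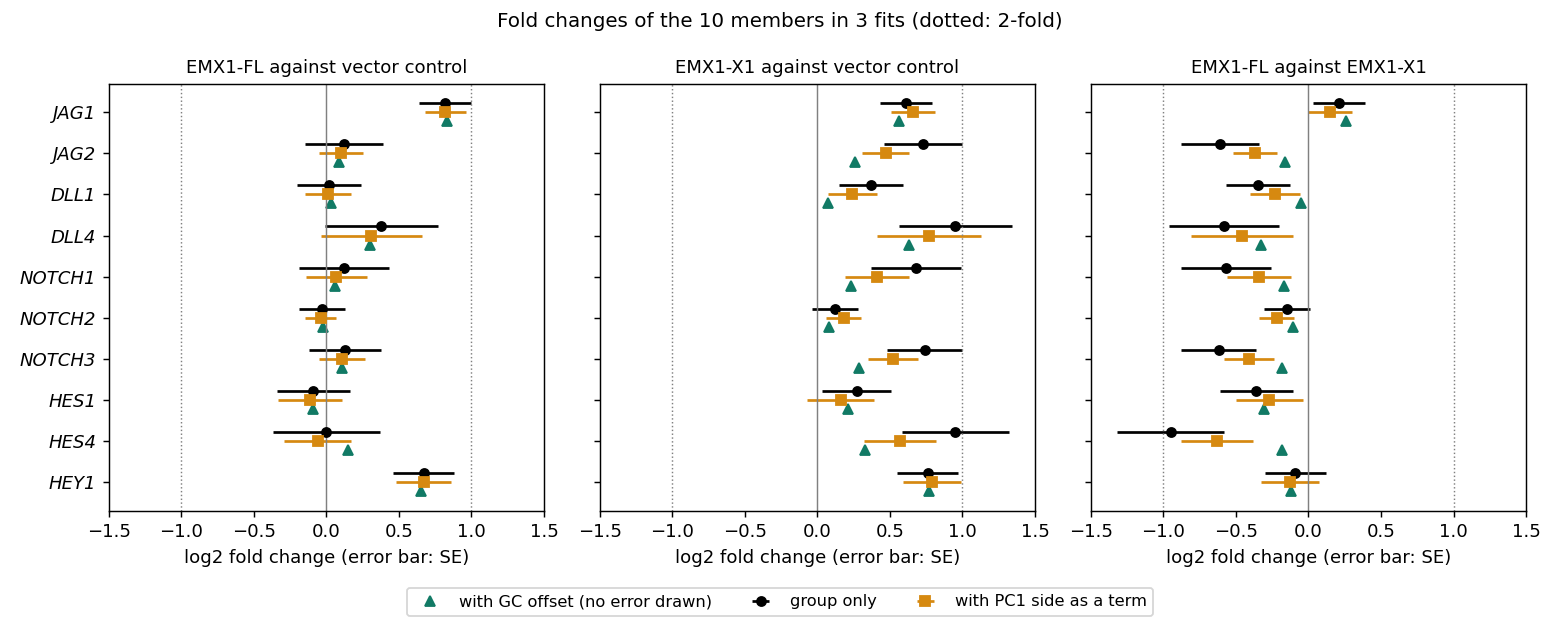
Log2 fold changes of the 10 genes in the 3 comparisons, from the edgeR fit with the group only (circles, SE), with the PC1 side as a term (squares, SE) and with the GC offset (triangles, no error drawn); dotted lines mark a fold of 2. JAG1 at 0.82 and HEY1 at 0.67 keep their place with EMX1-FL in all 3 fits, while HES4 with EMX1-X1 goes from 0.95 to 0.33.

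Other genes of the pathway were examined from a list of 57, of which 50 were tested. With EMX1-FL 1 of 50 was a DEG, against 2.42% of all tested genes. DTX1, a Deltex ubiquitin ligase that modulates the receptor, had 0.557, 0.829 and 0.742 CPM in the vector control, 1.6, 1.56 and 1.2 CPM with EMX1-FL and 0.915, 1.16 and 1.9 CPM with EMX1-X1, on between 13 and 47 counts. It rose with EMX1-FL by 1.03 on the log2 scale (SE 0.39, unadjusted p = 0.0232, edgeR adjusted p = 0.728), and with EMX1-X1 it was at 0.9 (SE 0.39, unadjusted p = 0.0423, edgeR adjusted p = 0.602; 0.46 with the GC offset). Its call was lost without vector control replicate 1 or EMX1-FL replicate 1. At an unadjusted p under 0.05 in edgeR, 1 of the 50 was higher with EMX1-FL and 2 were lower, against 3.97% and 1.83% of all tested genes. With EMX1-X1 none of the 50 was a DEG, against 2.5%, while 6 were higher and 1 lower at that p, against 5.95% and 2.16%. Between the isoforms 1 of 50 was a DEG, against 1.42%: DLK2, an atypical Delta-like protein without the domain that activates receptors. DLK2 had 5.87, 4.93 and 6.06 CPM in the vector control, 5.41, 3.16 and 2.49 CPM with EMX1-FL and 4.49, 8.4 and 9.33 CPM with EMX1-X1, and the ranges of the overexpression groups overlapped. The log2 fold change between them was -1.005 (SE 0.33, unadjusted p = 0.011, edgeR adjusted p = 0.611), and -0.70 with the GC offset.

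Of 8 tested genes of the nuclear complex, 1 had an unadjusted p under 0.05 in edgeR in each overexpression comparison (EP300, lower). Of 8 corepressor genes 1 had it in each (TLE1, lower with EMX1-FL, and TLE3, higher with EMX1-X1). Among all tested genes 3.97% were higher and 1.83% lower at that p with EMX1-FL, and 5.95% and 2.16% with EMX1-X1. All of these pathway genes were below the fold change limit and none was at an adjusted p under 0.05. EP300, a histone acetyltransferase that joins the Notch complex, had 273, 258 and 248 CPM in the vector control, 194, 202 and 179 CPM with EMX1-FL and 225, 192 and 191 CPM with EMX1-X1. All overexpression libraries lay below all controls, with log2 fold changes of -0.44 (SE 0.15, unadjusted p = 0.0112, edgeR adjusted p = 0.567) and -0.36 (SE 0.15, unadjusted p = 0.0314, edgeR adjusted p = 0.576). The EMX1-FL adjusted p in edgeR was 0.0433 with the PC1 side as a term and 0.178 with the GC offset. TLE1, a Groucho corepressor that HES proteins recruit, had 202, 201 and 240 CPM in the vector control, 165, 142 and 123 CPM with EMX1-FL and 166, 226 and 238 CPM with EMX1-X1. Its EMX1-FL libraries lay below every control, with -0.58 on the log2 scale (SE 0.19, unadjusted p = 0.00882, edgeR adjusted p = 0.524). The adjusted p in edgeR was 0.00933 with the PC1 side as a term and 0.0352 with the GC offset. TLE3, of the same family, was at 0.67 with EMX1-X1 (SE 0.22, unadjusted p = 0.0111, edgeR adjusted p = 0.536), with 0.13 within the low-score and 0.85 within the high-score libraries and 0.43 with the GC offset. SNW1, the most abundant gene of the complex list at 218 ± 38.1 TPM in the vector control, had 0.03 in both overexpression comparisons (SE 0.17).

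Among the remaining targets HEY2, the most abundant, had 221, 188 and 208 CPM in the vector control, 243, 230 and 260 CPM with EMX1-FL and 244, 330 and 349 CPM with EMX1-X1. All overexpression libraries lay above all controls, with log2 fold changes of 0.25 (SE 0.17, unadjusted p = 0.164 in edgeR) and 0.58 (SE 0.17, unadjusted p = 0.00503, edgeR adjusted p = 0.482). The EMX1-X1 difference was 0.26 within the low-score libraries and 0.71 within the high-score ones. HES6, a HES relative known to oppose HES1, had 0.64 with EMX1-FL (SE 0.36, unadjusted p = 0.0994 in edgeR). It had 0.59 with an edgeR adjusted p of 0.105 with the GC offset, and 0.60 with one of 0.0189 with the PC1 side as a term. HES6, EP300 and TLE1 were the 3 of 50 that passed an adjusted p under 0.05 in that fit with EMX1-FL, where 1.53% of all tested genes did.

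Genes of ligand and receptor handling gave the following values. For ligand-like genes, DLL3, which is known to inhibit Notch in the same cell, was at 0.60 with EMX1-FL (SE 0.32, unadjusted p = 0.0895 in edgeR) and 0.63 with EMX1-X1 (SE 0.32, unadjusted p = 0.0774 in edgeR; 0.19 with the GC offset). Of the fringe glycosyltransferases that tune ligand choice, LFNG was at 0.50 with EMX1-FL (SE 0.29, unadjusted p = 0.117 in edgeR) and RFNG at 0.68 with EMX1-X1 (SE 0.24, unadjusted p = 0.0165, edgeR adjusted p = 0.559; within sides 0.12 and 0.81, with the GC offset 0.16). Of the ligases that start ligand endocytosis, MIB1 was at 0.28 with EMX1-FL (SE 0.32), and at 0.09 with the GC offset. MIB2 was at 0.51 with EMX1-X1 (SE 0.27), with -0.01 within the low-score and 0.62 within the high-score libraries and -0.03 with the GC offset. Of gamma-secretase, the abundant subunit gene APH1A was at -0.01 with EMX1-FL (SE 0.23) and 0.30 with EMX1-X1 (SE 0.23; 0.09 with the GC offset). DTX3, the most abundant of the regulators, was at -0.02 with EMX1-FL and 0.40 with EMX1-X1 (SE 0.24; 0.09 with the GC offset).

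PSENEN, a small gamma-secretase subunit, followed PC1 more than any other listed gene. It had 3.08, 2.4 and 2.51 CPM in the vector control, 15.2, 0.632 and 1.66 CPM with EMX1-FL and 1.79, 12.4 and 16.2 CPM with EMX1-X1. Its 3 high values were those of the overexpression libraries with high PC1 scores, while vector control 3, also on that side, stayed at the level of the other controls. The EMX1-X1 log2 fold change was 1.93 (SE 0.95, unadjusted p = 0.0654, edgeR adjusted p = 0.623), with -0.60 within the low-score and 2.50 within the high-score libraries. Of its exon bases, 52.2% are shared with AD000671.3 and AD000671.1, and reads on them may come from those genes or be left out of the counts.

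Over the 9 libraries, the genes whose log2 CPM followed JAG1 most closely were SDC2, a cell surface heparan sulfate proteoglycan (Pearson r = 0.977), RBMS1, an RNA-binding protein (r = 0.974), and ARF6, a small GTPase of membrane traffic (r = 0.973). SDC2 was at 1.44 with EMX1-FL and 1.18 with EMX1-X1 on the log2 scale, RBMS1 at 1.16 and 0.89, and ARF6 at 0.25 and 0.16. These r values were the highest among all tested genes, share the same libraries and groups, and are given as a description.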

How the data were processed

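RNA-seq of SNU-398 cells, 3 libraries in each of 3 groups taken from the sample labels, was analysed. The authors trimmed reads with fastp, aligned them with STAR and deposited unnormalized counts, in read pairs for each gene name. The count table's header names featureCounts 2.0.1 and Ensembl release 99 of GRCh38, the submitters' processing notes featureCounts 2.0.6, while RSEM is the counter in the paper's methods. A second table the authors deposited is on a log2 scale, log2(TPM + 1), and was turned back to TPM for levels. Totals of 21562703 to 25197970 counts per library set the precision. The test of the counts was the one of edgeR 4.0.16 in R 4.3.3 (TMM, filterByExpr, quasi-likelihood F test, all 9 libraries, group only) with Benjamini-Hochberg adjustment per comparison. SE is the absolute log2 fold change over the square root of F, and 95% intervals use the moderated degrees of freedom. Log2 CPM in PC1, the GC curves and the correlations used a prior count of 2. Within-side values are differences in mean log2 CPM without a prior count.

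Alternatives were RLE factors, limma 3.58.1 on log2 TPM with a pseudocount of 1 or 0.1, DESeq2 1.42.0, no filter, 6 libraries only, a replicate block, the PC1 side as a term, a GC offset (a loess per library against the GC content of the longest GENCODE release 29 transcript, span 0.3, known for 95.6% of tested genes) with and without the block, and leaving out each library. The 10 members and the lists were chosen with earlier results of these data known. The DEG threshold follows the paper's methods. All members are named, with, from the pathway list, every DEG, the gene of each role with the smallest p in each overexpression comparison and the most abundant of each role. The NOTCH2 copies were checked for shared reads, and HES5 was named after its values were seen. Promoter sequences are from RefSeq. Python 3.11.15, pandas 2.3.3 and matplotlib 3.10.9 made tables and plots. Protein sequences were not analysed here, and some results that these rules cover are not reported here.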

Additional observations from a re-analysis of the deposited data

Results flagged for a closer look

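DLK2, an atypical Delta-like gene, was the 1 of 50 other pathway genes past the DEG threshold between EMX1-FL and EMX1-X1, against 1.42% of all tested genes. In this test of the difference itself, the log2 fold change of EMX1-FL against EMX1-X1 was -1.005 (SE 0.33, unadjusted p = 0.011, edgeR adjusted p = 0.611), just past the fold change limit. It was -0.61 with EMX1-FL and 0.40 with EMX1-X1 against the shared vector control. The isoform groups overlapped. Their difference was -0.78 with the PC1 side as a term and -0.70 with the GC offset. The call was lost in both fits, with limma on log2(TPM + 1) and with the 6 libraries compared. DLK2 was 0.69 higher on the log2 scale in the libraries with high PC1 scores, by the side term of the edgeR fit. Within the sides the difference between the isoforms was -0.68 and -0.71.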

How the results depend on the processing

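The count of 0 DEGs among the 10 members held under RLE factors, DESeq2, limma with either pseudocount, no filter, the 6 libraries compared, the PC1 side, the GC offset and the replicate block, in all 3 comparisons. With an unadjusted p and no fold change limit it was 2 with EMX1-FL, 7 with EMX1-X1 and 3 between the isoforms. Leaving out 1 library gave 0 to 0, 0 to 2 and 0 to 2, while the DEGs among all tested genes ran from 437 to 676, 311 to 906 and 141 to 1108. Of the other pathway genes, 1 was a DEG with EMX1-FL, and the count was 3 with no filter or no fold change limit, 0 with limma on log2(TPM + 1) or at an adjusted p, and 0 to 1 without 1 library. With EMX1-X1 it was 0, then 3 with no filter, 1 with the 6 libraries compared or the GC offset, 7 with no fold change limit, and 0 to 3 without 1 library. Between the isoforms it was 1, then 8 with no fold change limit, 0 to 5 without 1 library, and 0 with limma on log2(TPM + 1), the 6 libraries compared, the PC1 side, the GC offset with or without the replicate block, or at an adjusted p. With no filter the DEGs among all genes went from 450, 464 and 263 to 947, 962 and 686 in the 3 comparisons. They were 142, 177 and 107 with limma on log2(TPM + 1), and 357, 477 and 208 with the 6 libraries compared. With the GC offset they were 486, 382 and 216. Without the fold change limit, 3.97% of all tested genes were higher and 1.83% lower with EMX1-FL. The shares were 5.95% and 2.16% with EMX1-X1, and 2.98% and 4.66% between the isoforms. The cause was not tested.

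Small log2 fold changes with EMX1-FL, none of them called, turned sign when 1 library was left out: NOTCH1 (-0.14 to 0.33), NOTCH2 (-0.16 to 0.1), NOTCH3 (0 to 0.26, just below 0 without EMX1-FL replicate 1), JAG2 (-0.07 to 0.24), DLL1 (-0.09 to 0.13), DLL4 (-0.07 to 0.69), HES1 (-0.24 to 0, just above 0 without EMX1-FL replicate 2) and HES4 (-0.31 to 0.25), as did HEY1 between the isoforms (-0.19 to 0.01). NOTCH2 was also 0.05 with limma at either pseudocount, and HES4 was -0.06 with the PC1 side and -0.01 with RLE factors, DESeq2, no filter, the 6 libraries compared or the replicate block. JAG1 and HEY1 kept their direction against the vector control in all 19 refits, JAG1 at 0.7 to 0.93 with EMX1-FL and 0.55 to 0.7 with EMX1-X1, HEY1 at 0.57 to 0.75 and 0.64 to 0.85. With no filter on low counts HES4 passed an adjusted p in edgeR with EMX1-X1 (0.02) and between the isoforms (0.0274). Passes rose among all genes in that fit too. The genes at an adjusted p under 0.05 with the fold change limit went from 1 to 112 with EMX1-X1 and from 0 to 59 between the isoforms.

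Libraries share replicate numbers, but residuals of same-numbered libraries did not deviate together (mean r = -0.126, against 0.0596 for other pairs; 3 of 9 pairs over 0.1), so the numbers were not taken as pairs. With the replicate block JAG1 with EMX1-FL stayed at 0.82 with an edgeR adjusted p of 0.656, and the DEG counts of the members stayed at 0 and of the other genes at 1, 0 and 1. The low counts of DLL4 (from 23) and DTX1 (from 13) limit their precision.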
